A study of Homo sapiens with 9 samples.

Results

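The genes described here encode the general transcription factors of RNA polymerase II and the subunits of Mediator. Members were the protein-coding genes of GENCODE version 44 (GRCh38) whose names begin with TAF, GTF2A to GTF2H or MED followed by a number, together with TBP, CCNC, CDK7 and CDK8. They numbered 85 of the 20046 protein-coding genes. Of these, 14 belong to TFIID (TBP and its TAF partners), 15 to TFIIA, TFIIB, TFIIE, TFIIF or TFIIH, and 32 to Mediator. The other 24 carry a TAF name but serve elsewhere or are copies: the polymerase I factor SL1, TAF5L and TAF6L of the SAGA coactivator, the RNA-binding protein TAF15, and paralogs that include 13 TAF11L genes.

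The study mapped POLR2A, the catalytic subunit of RNA polymerase II, by ChIP-seq in HEK293T, an established human embryonic kidney line. The conditions were a control shRNA in cells labelled wildtype, U2AF1 knockdown and DHX9 knockdown, each with 2 ChIP replicates and 1 input. U2AF1 reads the AG at the 3′ end of introns as part of the U2AF splicing factor, and DHX9 is a helicase that unwinds RNA and DNA structures, R-loops among them. All groups are cultures of the same line, and the labels give neither the shRNA sequences nor the extent or duration of the knockdown. Peak lists hold no marker levels, so the identity of the line was not checked here.

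General transcription factors assemble at a promoter in a set order. TFIID binds core promoter DNA through TBP and its TAFs, TFIIA and TFIIB stabilise it, TFIIF brings the polymerase, and TFIIE and TFIIH open the DNA, with the TFIIH kinase CDK7 phosphorylating the polymerase tail. Mediator links activators to this assembly through its tail, middle and head modules, and its kinase module (CDK8 or CDK19, CCNC, MED12, MED13) binds reversibly. The values below are polymerase peaks at the genes that encode these proteins, not the binding of the proteins themselves.

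Each condition had a single deposited list of peaks, so no value has a replicate error and differences between conditions could not be tested. There were 2757 control peaks, 1730 under U2AF1 knockdown and 4443 under DHX9 knockdown. Read depth is unknown from the lists, and the number of peaks moves with it. A gene was counted when the summit of a peak, its highest point, lay within 1000 bp of any of its transcript starts. Peaks were ranked within their list by the authors' fold enrichment, and the rank percentile is given from 0 (highest fold) to 100 (lowest). A gene without a peak is one where the caller placed none, which does not mean that polymerase was absent.

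Promoter peaks were found at few of the 85 genes, and about as often as at other coding genes. The control list had a peak at 12 of them, or 14.1% (95% Wilson interval 8.26 to 23.1), against 12.6% of all protein-coding genes. The U2AF1 knockdown list had a peak at 6, or 7.06% (3.28 to 14.6), against 6.64%. The DHX9 knockdown list had a peak at 22, or 25.9% (17.8 to 36.1), against 21.0%. Intervals cover counting error over genes only. With all 85 genes counted, the 3 shares lay close to those of coding genes at large, and their order followed the length of the lists. Under DHX9 knockdown this depended on the genes counted. Without the 13 TAF11L genes and GTF2H2C the share was 22 of 71 (31.0%, 21.4 to 42.5). With only the general transcription factors and Mediator it was 20 of 61 (32.8%, 22.3 to 45.3). Both intervals lay above the 21.0% of coding genes. In the control and U2AF1 knockdown lists the intervals held the coding share under either choice. When each list was limited to its 1730 most significant peaks, the DHX9 knockdown list fell to 7 members (8.24%, against 8.44% of coding genes), beside 9 in the control list (10.6%, against 8.05%) and 6 in the U2AF1 knockdown list (7.06%, against 6.64%).

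TFIID held the highest share among the classes in every list. Of its 14 genes, 5 had a control peak (35.7%, 16.3 to 61.2), 3 a U2AF1 knockdown peak (21.4%, 7.57 to 47.6) and 7 a DHX9 knockdown peak (50.0%, 26.8 to 73.2). Among the 15 genes of TFIIA to TFIIH the counts were 3, 1 and 4 in the same order (20.0%, 6.67% and 26.7%). Mediator had 3, 1 and 9 of 32 (9.38%, 3.13% and 28.1%). The remaining TAF genes had 1, 1 and 2 of 24 (4.17%, 4.17% and 8.33%), and none of the 17 TAF paralogs had a peak. Over all protein-coding genes the shares were 12.6%, 6.64% and 21.0%. In every list that share lay inside the intervals of TFIIA to TFIIH, Mediator and the remaining TAF genes. The intervals of these small classes are wide. Under DHX9 knockdown that of the remaining TAF genes (2.32 to 25.8) stayed below that of TFIID, but without the 13 TAF11L copies it was 2 of 11 genes (18.2%, 5.14 to 47.7), and the intervals overlapped.

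**Figure D1:**
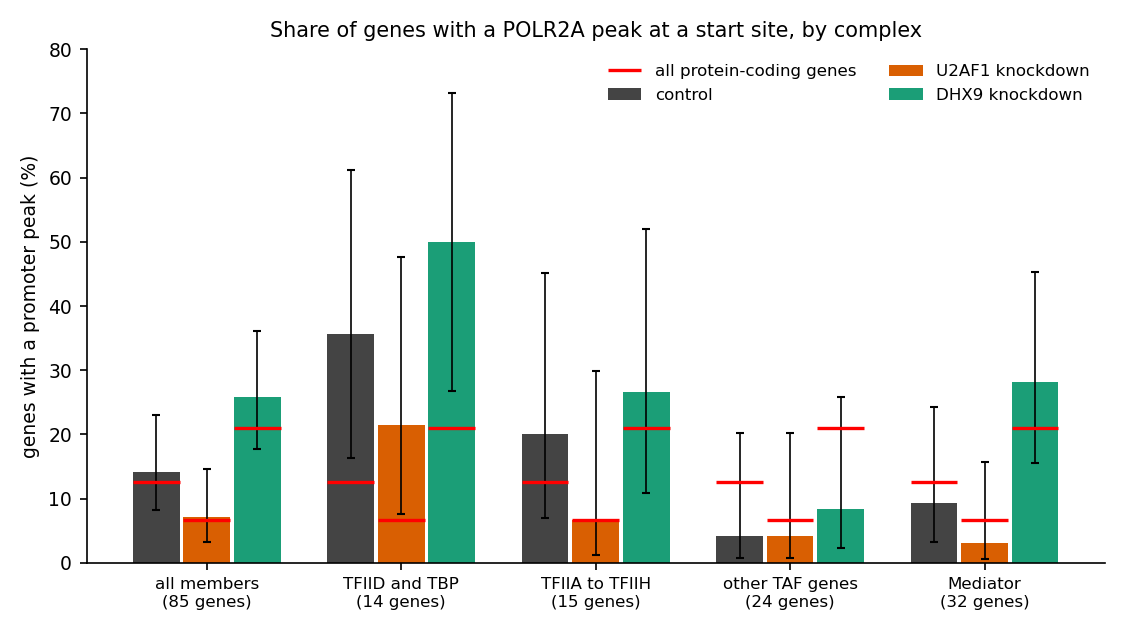
Share of genes with a POLR2A peak summit within 1000 bp of a transcript start (vertical axis, percent) for all 85 members and by class, for each of the 3 lists; thin bars are 95% Wilson intervals over genes, and red lines are the share of all protein-coding genes in the same list. All members lie near the red lines, and TFIID stands at 35.7%, 21.4% and 50.0%.

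A peak in any list was found at 24 members. It was in all 3 lists at 4 (TAF4, TAF12, TAF5L and GTF2A1), in the control and DHX9 knockdown lists at 6, and in the DHX9 knockdown list alone at 11, which is 45.8% of the 24. Over all coding genes with a peak in any list, 40.5% had it in the DHX9 knockdown list alone and 16.2% had it in all lists. MED15 had a peak in the control and U2AF1 knockdown lists, TAF8 in both knockdown lists and TAF10 in the control list alone. No member had its peak in the U2AF1 knockdown list alone, where 3.25% of coding genes with any peak had it. The matching coding shares were 22.1% for control and DHX9 knockdown and 1.75% for control and U2AF1 knockdown. They were 5.54% for both knockdown lists and 10.7% for the control list alone.

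**Figure D2:**
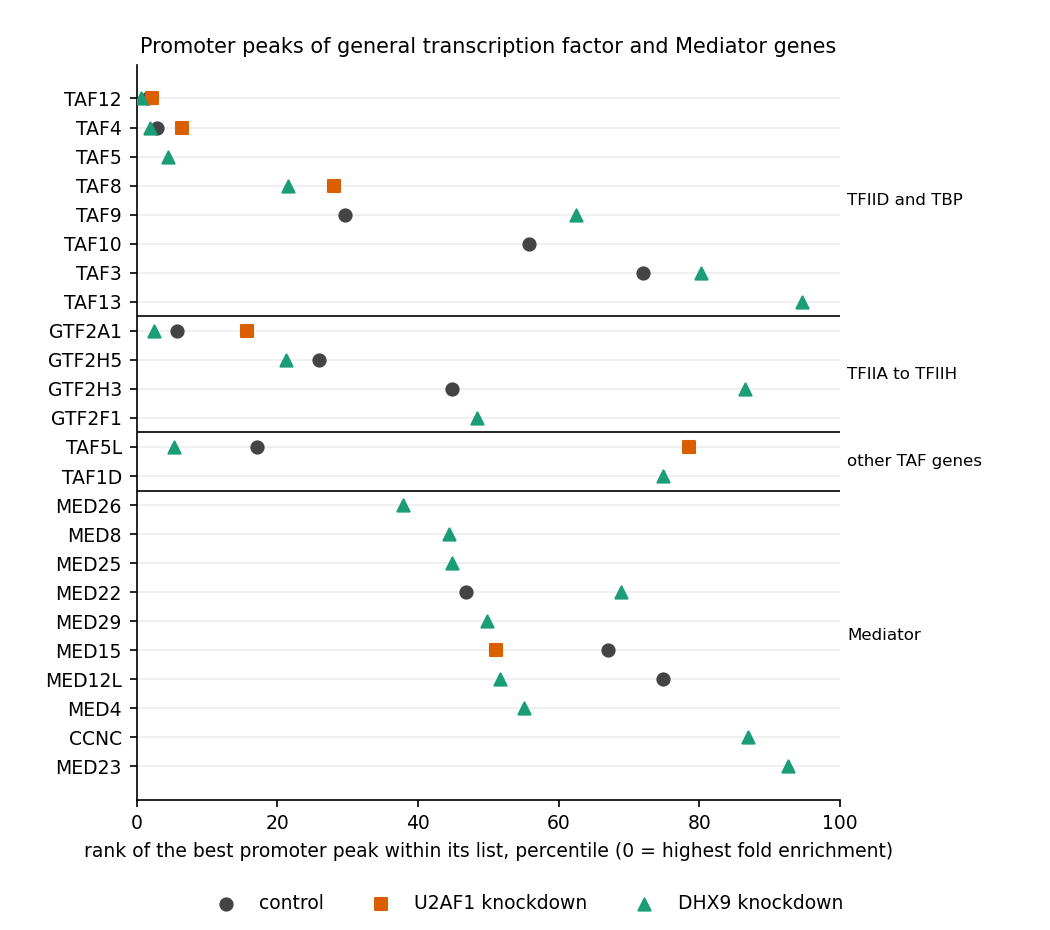
Rank percentile (horizontal axis, 0 is the highest fold enrichment of the list) of the best promoter peak of each of the 24 members with a peak, by class, with circles for control, squares for U2AF1 knockdown and triangles for DHX9 knockdown. TAF12, TAF4 and GTF2A1 stand at the left in all lists (the control circle of TAF12, at 1.70, lies under the other symbols), and every Mediator peak lies at 37.9 or beyond.

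Among TFIID genes, TAF4 had the clearest signal that no annotated neighbour shared closely. TAF4 encodes a core TFIID subunit that contacts activators. The gene lies on chromosome 20, 61953469 to 62065881, minus strand. The control peak spanned chr20:62065767-62066454 and ranked 79 with a fold enrichment of 11.9. The U2AF1 knockdown peak spanned chr20:62065646-62066515 and ranked 112 with a fold of 8.79, and the DHX9 knockdown peak spanned chr20:62065986-62066347 and ranked 87 with a fold of 14.2. These ranks are percentiles of 2.87, 6.47 and 1.96, so TAF4 was near the top of every list. Fold enrichments of different lists are not on a common scale and are not compared.

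All 3 TAF4 summits lay upstream of the gene, at -219 (control), -241 (U2AF1 knockdown) and -266 bp (DHX9 knockdown) from its start. The nearest other start was that of a lncRNA, ENSG00000283078, 730 to 683 bp away on the opposite strand. The stretch that holds the summits (chr20:62066080-62066167) and the 120 bases just before the start (chr20:62065882-62066001) are shown in the direction of TAF4, from GRCh38. In the first, capitals mark the summit bases, with the DHX9 knockdown summit leftmost and the control summit rightmost. In the second, capitals mark the GC box GGGCGG, the core of the site of SP1 factors, on either strand.
TAF4 summits: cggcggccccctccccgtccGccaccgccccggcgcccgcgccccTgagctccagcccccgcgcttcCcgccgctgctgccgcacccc
TAF4 before the start: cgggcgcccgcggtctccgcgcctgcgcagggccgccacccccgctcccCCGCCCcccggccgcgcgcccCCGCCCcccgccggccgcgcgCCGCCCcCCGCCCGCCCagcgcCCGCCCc

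TAF12, which encodes a histone-fold partner of TAF4 in TFIID and is also part of SAGA, had the member peaks of best rank, but these lie at a neighbouring small nuclear RNA gene. RNU11 encodes U11, the RNA of the minor spliceosome that recognises 5′ splice sites of rare introns. It is 134 bp long (chr1:28648600-28648733, plus strand), and its start is 309 bp from the outermost of the annotated TAF12 transcript starts and 5533 bp from the canonical one. The peaks there spanned chr1:28648420-28649583 in the control list (fold 16.3, rank 47), chr1:28648476-28649377 in the U2AF1 knockdown list (fold 13.2, rank 37) and chr1:28648506-28649661 in the DHX9 knockdown list (fold 31.1, rank 27). Their summits were 204, 414 and 399 bp downstream of the RNU11 start, and a lncRNA, ENSG00000270103, starts at the same place.

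TAF12 also had a peak at its own main start in every list, and this one was weaker. It spanned chr1:28642819-28643128 in the control list (fold 3.71, rank 1769), chr1:28642863-28643214 in the U2AF1 knockdown list (fold 5.65, rank 483) and chr1:28642817-28643126 in the DHX9 knockdown list (fold 7.08, rank 787). The summits lay 2, 4 and 14 bp downstream of a TAF12 start, in the 5′ UTR. So TAF12 counted as present in all lists by either peak, but its percentile moved from 1.70 to 64.2 (control), from 2.14 to 27.9 (U2AF1 knockdown) and from 0.608 to 17.7 (DHX9 knockdown). With TAF12 taken by its own promoter peak, the median percentile of TFIID genes with a peak went from 29.6 to 55.9 for the control and from 6.47 to 27.9 for U2AF1 knockdown, and stayed at 21.6 for DHX9 knockdown.

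**Figure D3:**
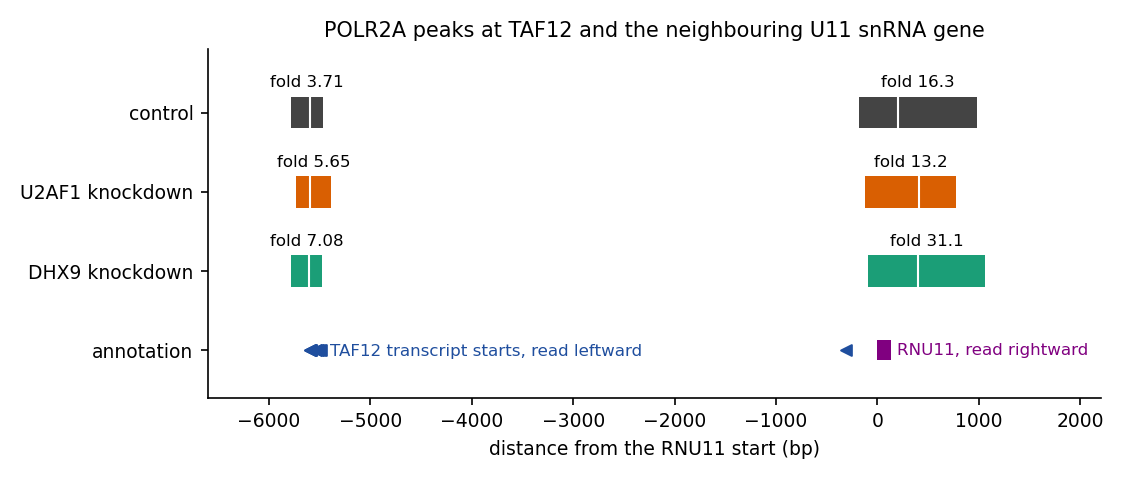
Peaks at TAF12 and RNU11 by list, as distance from the RNU11 start (horizontal axis, bp); bars span each peak, white lines mark summits, numbers give fold enrichment, arrowheads mark TAF12 transcript starts and the purple box is RNU11. In every list the peak over RNU11 has the higher fold, 16.3, 13.2 and 31.1, against 3.71, 5.65 and 7.08 at the main TAF12 starts.

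The 120 bases before each of these starts are shown to compare a small nuclear RNA promoter with the promoter of a TAF gene, RNU11 from chr1:28648480-28648599 on the plus strand and TAF12 from chr1:28643116-28643235 on the minus strand (GRCh38). Capitals mark the ETS motif CCGGAAG, the core bound by ETS-family activators, on either strand, and the RNU11 stretch holds neither this motif nor the GC box. For TAF12 the stretch begins 48 bp upstream of the canonical start, outside the annotated first exons of this cluster.
RNU11: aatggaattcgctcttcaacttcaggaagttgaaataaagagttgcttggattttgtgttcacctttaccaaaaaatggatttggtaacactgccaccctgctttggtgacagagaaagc
TAF12: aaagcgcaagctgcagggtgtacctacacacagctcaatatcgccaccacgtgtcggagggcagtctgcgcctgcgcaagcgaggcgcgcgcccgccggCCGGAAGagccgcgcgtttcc

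TAF5 and TAF8 were the TFIID genes with a knockdown peak and none in the control list that ranked highest. TAF5 encodes a scaffold subunit with a WD40 repeat domain. In the DHX9 knockdown list its peak (chr10:103367859-103368186) had a fold enrichment of 10.1, a −log10 q of 18.2 and rank 197, a percentile of 4.43, with the summit 51 bp downstream of a start. No peak of the control or U2AF1 knockdown list lay within 1000 bp of a TAF5 start, and this was the best-ranked of the 11 members seen in the DHX9 knockdown list alone. TAF5 kept its peak when the list was limited to 1730 peaks.

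TAF8, which pairs with TAF10 through its histone fold, had a peak at chr6:42050525-42050735 in the U2AF1 knockdown list (fold 5.64, rank 486) and at chr6:42050404-42050636 in the DHX9 knockdown list (fold 6.67, rank 959). The summits lay at -14 and -30 bp from a TAF8 start, and CCND3, the cyclin D3 gene, has a start 259 and 243 bp away on the other strand. The bases just before the outermost starts of both genes, chr10:103367846-103367965 for TAF5 and chr6:42050393-42050512 for TAF8, are shown with the GC box in capitals; TAF8 has a run of adjoining copies.
TAF5: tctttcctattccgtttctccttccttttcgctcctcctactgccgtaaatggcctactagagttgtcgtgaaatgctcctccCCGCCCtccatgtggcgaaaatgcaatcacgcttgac
TAF8: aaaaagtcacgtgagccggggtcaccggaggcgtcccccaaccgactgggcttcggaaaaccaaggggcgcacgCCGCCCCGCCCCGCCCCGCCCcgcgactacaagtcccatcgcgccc

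The remaining TFIID peaks were of middle or low rank. TAF9, another histone-fold subunit, had a control peak of fold 4.86 and rank 817, and a DHX9 knockdown peak of fold 4.86 and rank 2773. AK6, an adenylate kinase gene, starts beside it on the same strand and RAD17 starts on the other strand, and the DHX9 knockdown summit was nearer to RAD17 (93 bp) than to TAF9 (173 bp). TAF3, whose PHD finger reads histone H3 methylated at lysine 4, had rank 1986 in the control list and 3567 in the DHX9 knockdown list.

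TAF10 (chr11:6612003-6612236, fold 3.94, rank 1540) was the only member with a peak in the control list alone, with its summit in a coding exon 105 bp downstream of the canonical start. TAF13 had a peak in the DHX9 knockdown list alone, of rank 4200 and fold 3.27, the lowest rank of any member in that list. TBP, TAF1, TAF2, TAF6, TAF7 and TAF11 had no promoter peak in any list. TBP binds the TATA element and TAF1 is the largest subunit of TFIID.

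Of the factors that join after TFIID, GTF2A1 was the one present in all lists. GTF2A1 encodes the large precursor of TFIIA, which steadies TBP on DNA. Its control peak (chr14:81220683-81221002) had a fold of 8.15 and rank 160, its U2AF1 knockdown peak (chr14:81220664-81220909) a fold of 6.55 and rank 272, and its DHX9 knockdown peak (chr14:81220595-81221560) a fold of 12.3 and rank 108. The percentiles were 5.80, 15.7 and 2.43. The summits lay 85, 136 and 130 bp downstream of a GTF2A1 start, in the 5′ UTR, so this gene differed from TAF4, whose summits were upstream. A lncRNA, GTF2A1-AS1, starts 351, 402 and 396 bp from the summits. The DHX9 knockdown peak was 966 bp wide, beside 320 and 246 bp in the control and U2AF1 knockdown lists, and the summits of the knockdown lists were 6 bp apart.

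The bases just before the canonical GTF2A1 start (chr14:81220960-81221079, minus strand) are shown because this promoter, like that of TAF4, has a peak in every list. Its U2AF1 knockdown peak ranked lower, at percentile 15.7 by fold. By −log10 p the percentiles were 11.3 (control), 31.0 (U2AF1 knockdown) and 4.05 (DHX9 knockdown). Capitals mark the GC box on either strand.
GTF2A1: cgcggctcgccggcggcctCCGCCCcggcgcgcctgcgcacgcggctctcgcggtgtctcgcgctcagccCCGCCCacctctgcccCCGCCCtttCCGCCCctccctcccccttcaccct

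TFIIH genes with a peak sat at promoters shared with another gene. GTF2H5, the smallest subunit of the TFIIH core, had a control peak of fold 5.05 and rank 715 and a DHX9 knockdown peak of fold 6.70 and rank 946, and SERAC1 starts on the other strand, 151 and 54 bp from the summits. GTF2H3, another core subunit, had a control peak of fold 4.30 and rank 1238 and a DHX9 knockdown peak of fold 3.92 and rank 3840, and the translation factor gene EIF2B1 starts 97 and 102 bp from the summits. Neither gene had a U2AF1 knockdown peak. In the TFIIF pair, GTF2F1 had a DHX9 knockdown peak of rank 2151 in an intron, 247 bp from one of its starts and 60 bp from that of a pseudogene, and GTF2F2 had none.

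No peak was placed at GTF2B, which encodes TFIIB, at GTF2E1 or GTF2E2 of TFIIE, at the kinase gene CDK7, or at GTF2H1, GTF2H2, GTF2H2C, GTF2H4, GTF2A2 and GTF2A1L. GTF2H2 and GTF2H2C are near-identical copies, as are the TAF11L genes, and reads from such copies may have been discarded or split by the authors' alignment. For these genes the absence of a peak is uncertain.

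Outside TFIID, TAF5L was the TAF gene of best rank. It encodes the SAGA counterpart of TAF5 and starts head to head with URB2, a ribosome biogenesis gene. The control list had a peak of fold 5.64 and rank 474 (chr1:229625883-229626417) and a further one of fold 4.44 and rank 1104, with its summit 451 bp into the gene. The DHX9 knockdown list had a single peak of fold 9.54 and rank 234 (chr1:229625511-229626381), 871 bp wide. In the U2AF1 knockdown list the peak (chr1:229625925-229626478) had a fold of 3.73 and rank 1359, a percentile of 78.6 against 17.2 and 5.27 in the control and DHX9 knockdown lists. Its summit lay -325 bp from TAF5L and 200 bp into URB2, whereas the best summits of the other lists were within 9 bp of a TAF5L start. TAF1D, a subunit of SL1, had a DHX9 knockdown peak of rank 3326, and TAF15, TAF6L and the other SL1 genes had none.

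Mediator genes had peaks of low or middle rank only. In the control list these were MED22 of the head module (fold 4.23, rank 1290), MED15 of the tail (fold 3.63, rank 1849) and MED12L, a paralog of the kinase module subunit MED12 (fold 3.39, rank 2063). The median percentile of these 3 was 67.1, against 45.8 for all coding genes with a control promoter peak. In the U2AF1 knockdown list MED15 alone had a peak (fold 4.68, rank 885, percentile 51.2).

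In the DHX9 knockdown list 9 Mediator genes had a peak (28.1%, against 21.0% of all coding genes). All of them had a percentile of 37.9 or more, with a median of 51.7 against 45.6 for coding genes with a peak. By rank these were MED26 (1682), the subunit that contacts elongation factors, MED8 (1974), MED25 (1992), MED29 (2211), MED12L (2297), MED4 (2450), MED22 (3062), CCNC (3862) and MED23 (4114). MED8 and MED22 belong to the head, MED26 and MED4 to the middle, MED25, MED29 and MED23 to the tail, and CCNC, or cyclin C, is the partner of CDK8. None of the 9 was left when the list was limited to its 1730 most significant peaks.

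CCNC had a fold of 3.90 and a −log10 q of 2.51 in the DHX9 knockdown list, and CDK8, MED12, MED13 and MED13L had no peak in any list. The scaffold gene MED14 had none either, nor did MED1, through which nuclear receptors bind Mediator. The other Mediator genes without a peak were MED6, MED7, MED9, MED10, MED11, MED16, MED17, MED18, MED19, MED20, MED21, MED24, MED27, MED28, MED30 and MED31.

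At MED22 and MED15 the peak could belong to a neighbour. The control and DHX9 knockdown summits at MED22 lay -146 and -140 bp from its start but 25 and 19 bp downstream of the start of RPL7A, a ribosomal protein gene read from the other strand. At MED15 the summits lay 88 and 154 bp downstream of the start of an upstream transcript, 11609 and 11543 bp before the canonical start, and 157 and 223 bp from a start of KLHL22. The 86 bases between the MED22 and RPL7A exons (chr9:133348132-133348217, shown in the direction of MED22) held no copy of the GC box or the ETS motif.
MED22: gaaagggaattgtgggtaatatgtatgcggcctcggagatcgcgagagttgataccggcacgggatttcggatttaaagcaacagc

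Shared promoters were common among the members with a peak. Another coding gene started within 1000 bp of the summit at 6 of 12 members in the control list, against 32.7% of coding genes with a control peak. The counts were 3 of 6 in the U2AF1 knockdown list, against 31.5%, and 12 of 22 in the DHX9 knockdown list, against 30.9%. The start nearest to the summit, among genes of any type, was the member's own at 10 of 12, 4 of 6 and 17 of 22 in the same order.

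Loss and gain between lists were set beside those of coding genes. Of the 12 members with a control peak, 5 also had a U2AF1 knockdown peak (41.7%, 19.3 to 68.0), against 35.4% of coding genes with a control peak. In reverse 5 of 6 U2AF1 knockdown members had a control peak (83.3%), against 67.1%. The 7 members without a U2AF1 knockdown peak were GTF2H5, TAF9, GTF2H3, MED22, TAF10, TAF3 and MED12L, with control ranks from 715 to 2063. The 3 members in the top 10% of the control list, TAF12, TAF4 and GTF2A1, all had a peak in both knockdown lists; 74.6% of coding genes of that control rank had one under U2AF1 knockdown and 93.9% under DHX9 knockdown. Of the other 9 members, 2 had a U2AF1 knockdown peak (31.8% of such coding genes) and 7 a DHX9 knockdown peak (73.8%). TAF12 is in the top 10% by its RNU11 peak only, and its own promoter peak had a control percentile of 64.2. Placed by that peak, 2 of 2 members in the top 10% and 3 of the other 10 had a U2AF1 knockdown peak, and 2 of 2 and 8 of 10 a DHX9 knockdown peak.

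The DHX9 knockdown list had 10 of the 12 control members (83.3%, 55.2 to 95.3, against 75.5%), all but TAF10 and MED15. Of its own 22 members, 10 had a control peak (45.5%, against 45.4%) and 5 a U2AF1 knockdown peak (22.7%, against 25.8%). Of the 6 U2AF1 knockdown members, 5 had a DHX9 knockdown peak (83.3%, against 81.3%). With each list limited to 1730 peaks, 5 of 7 DHX9 knockdown members had a control peak (71.4%, against 52.1%) and 5 of 7 a U2AF1 knockdown peak (71.4%, 35.9 to 91.8, against 40.5%). The 2 comparisons with the control share the same control list.

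Summits lay close to transcript starts. The median signed distance of the best peak was 22.5 bp for control members, -128 bp for those of U2AF1 knockdown and -5 bp for those of DHX9 knockdown, against 18, 28 and 14 bp for all coding genes. The U2AF1 knockdown median rests on 6 genes and its direction is not stable: it was -5 bp with a window of 500 bp, 4 bp over peaks nearest to the gene's own start and 66 bp from canonical starts. Summits within 100 bp of a start made up 8 of 12, 1 of 6 and 15 of 22, against 65.2%, 63.1% and 63.5% of coding genes. In the U2AF1 knockdown list the exception was TAF8, and the distant ones included TAF12 by its RNU11 peak, TAF5L by the URB2 side and TAF4. Median peak widths of members were 349.5, 505 and 328 bp, against 322, 281 and 329 bp.

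The members nearest the edge of the window were TAF12, at 723, 708 and 513 bp in the U2AF1 knockdown, DHX9 knockdown and control lists, and TAF5L, at 451 bp for its second control peak. The nearest outside were a control peak in a GTF2A1 intron at 1404 bp and a DHX9 knockdown peak in TAF6L at 5579 bp.

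**Figure D4:**
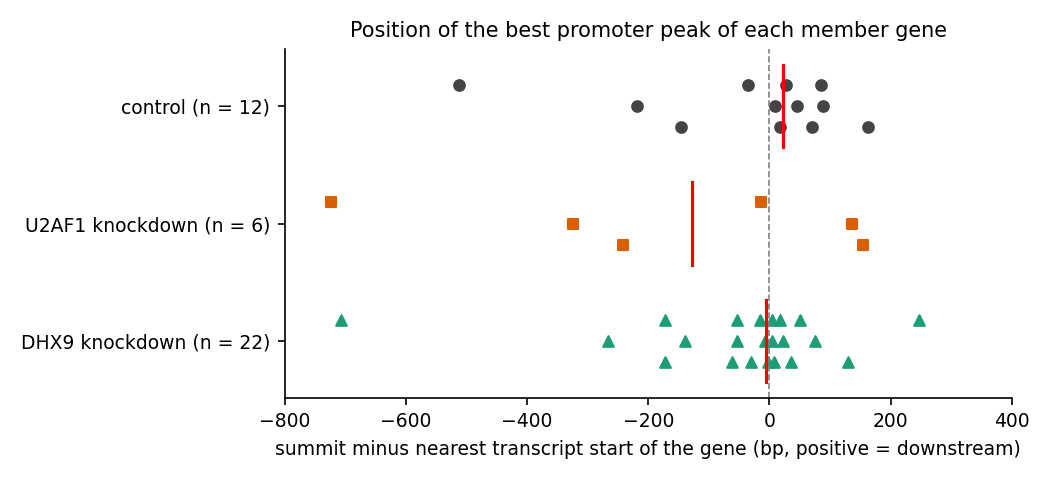
Signed distance in bp (horizontal axis) from the nearest transcript start of the gene to the summit of its best peak, for the 12 control members, the 6 of U2AF1 knockdown and the 22 of DHX9 knockdown; points are genes and red lines are medians, 22.5, -128 and -5 bp, the U2AF1 knockdown median being 66 bp from canonical starts. Most points lie near 0, and the leftmost point of each list is TAF12 with its RNU11 peak.

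Promoter sequence was compared as a description, at the canonical start of each gene. R-loops form more readily where the RNA-like strand downstream of a start is rich in G, which GC skew, (G − C)/(G + C), records. Over the 500 bp downstream of the start the median skew was 0.144 for the 24 members with a peak in any list and 0.113 for the 61 without. It was 0.0677 for coding genes with a peak and 0.0479 for those without. Members thus had a higher median skew than coding genes whether or not they had a peak, and leaving out the TAF11L copies put the members without a peak at 0.0876.

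Median GC content within 500 bp of the start was 60.7% for members with a peak and 55.9% without, against 65.8% and 59.5% for coding genes. A coding gene starting upstream on the other strand within 1000 bp of the canonical start was found for 8 of 24 members with a peak and 6 of 61 without, against 16.6% and 7.09% of coding genes.

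Of 4 motifs searched on both strands from 250 bp before to 50 bp after the canonical start, CCGGAAG was the one whose share among members lay farthest above that of all coding promoters. It occurred at 26 of 85 members (30.6%) and at 14.1% of all coding promoters. Among the 24 members with a peak it occurred at 10 (41.7%), against 21.8% of coding genes with a peak. Among the 61 members without a peak it occurred at 16 (26.2%), against 11.5% of coding genes without one. Leaving out the TAF11L genes made that 16 of 48 (33.3%). Members thus had the higher share whether or not they had a peak. GGGCGG occurred at 55 members (64.7%) and 61.3% of coding promoters, CCAAT at 27 (31.8%) and 36.1%, and TATAAA at 9 (10.6%) and 9.71%. Among genes with a peak, GGGCGG occurred at 70.8% of members and 80.1% of coding genes. A match is a run of letters and not a bound site.

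Other genes of the initiation machinery that the naming rule leaves out were read in the same way. Of 10 such genes, 4 had a control peak, 2 a U2AF1 knockdown peak and 2 a DHX9 knockdown peak, beside 12.6%, 6.64% and 21.0% of coding genes. The control count was 2 with a −log10 q of at least 5 and 1 with the lists at equal length. DR1, a subunit of the TBP inhibitor NC2, had a peak in each list, with rank 2120 in the control, 485 under U2AF1 knockdown and 3056 under DHX9 knockdown. Its partner DRAP1 had ranks 385 and 501 in the control and U2AF1 knockdown lists and no DHX9 knockdown peak.

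ERCC3, the TFIIH translocase, had rank 2303 in the control list and 1206 in the DHX9 knockdown list. CCNH, the cyclin partner of CDK7, had rank 1558 in the control list alone. ERCC2, MNAT1, CDK19, BTAF1, TBPL1 and TBPL2 had none.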

How the data were processed

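Peak lists were used, 1 per condition. Per the submitters' processing notes the tools were Bowtie2 2.4.5, MACS2 2.2.7.1 and deepTools 3.5.1 with the hg38 build; their options, the handling of the inputs and whether replicates were pooled are not given in the sources used here. The labels assign each list to both ChIP replicates, while the control peak names carry a suffix that reads as replicate 1. The deposited columns were a fold enrichment over background (a ratio), −log10 p, −log10 q, a score that restates q, and the summit offset. Fold enrichment was used only to rank peaks within a list, and where a gene had several peaks the best-ranked counted. Summits were assigned with Python 3.11.15, numpy 2.4.6 and pandas 2.3.3, and the assignment was tested on simulated peaks. Wilson intervals came from scipy 1.17.1.

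The members and lists were chosen with earlier results of these data known. No test between conditions was made. Genes named with values were TBP, CDK7, CDK8 and CCNC, members with a peak in all lists, the 5 of best rank in each list, members missing from a knockdown list or found in 1 list, and those nearest the window edge; other members with a peak were added after their values were seen. The alternatives were start windows of 500 and 2000 bp, a −log10 q of at least 5, equal list length, canonical starts, overlap in place of summits, the nearest coding gene, a narrower member list, ranking by −log10 p and, added after seeing the data, peaks nearest to the member's own start and members without near-identical copies.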

Additional observations from a re-analysis of the deposited data

How the results depend on the processing

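No paired analysis was possible because the deposited peaks form 1 list for each condition, and for the same reason no replicate could be left out. Of 297 values under 11 alternatives, 280 stayed inside their 95% interval (for medians, the quartiles over members) and 17 moved out of it. Windows of 500 and 2000 bp, and overlap in place of summits, moved none of 30 values each out of its interval, although the 500 bp window took the median U2AF1 knockdown summit from -128 to -5 bp (6 genes) and the median control percentile from 37.3 to 45.8 (12 genes), both with wide quartiles. That U2AF1 knockdown median was -14 bp for the nearest coding gene, 4 bp for peaks nearest to the gene's own start and 66 bp from canonical starts. The share of members with a peak ranged from 10.6% to 18.0% (control), from 4.71% to 8.45% (U2AF1 knockdown) and from 8.24% to 32.8% (DHX9 knockdown).

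With a −log10 q of at least 5, Mediator fell to 3.13% in the control list and 0% in the U2AF1 knockdown list, the other TAF genes to 0% in the latter, and 100% of U2AF1 knockdown members had a DHX9 knockdown peak. With equal list length the DHX9 knockdown share was 8.24%, Mediator was at 3.13% (control) and 0% (DHX9 knockdown), the median DHX9 percentile was 11.4, 71.4% of DHX9 knockdown members had a control peak (52.1% of coding genes) and 71.4% a U2AF1 knockdown peak (40.5%), and 10.0% of partner genes had a control peak. The median DHX9 knockdown percentile went the other way with the −log10 q limit, from 49.1 to 64.2, inside its quartiles. In both settings TFIID was at 28.6% in the control and DHX9 knockdown lists, where the main values were 35.7% and 50.0%. It stayed at 21.4% in the U2AF1 knockdown list. TFIIA to TFIIH in the DHX9 knockdown list was at 26.7% with the −log10 q limit and 13.3% at equal list length. Both settings hold fewer peaks by construction, and where a list was shortened the share of all coding genes fell too. With the −log10 q limit that share was 9.16% (control), 3.92% (U2AF1 knockdown) and 14.0% (DHX9 knockdown). At equal list length it was 8.05%, 6.64% and 8.44% in the same order.

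With canonical starts only, Mediator was at 0% in the U2AF1 knockdown list, since MED15 dropped out, 100% of U2AF1 knockdown members had a DHX9 knockdown peak, and the median DHX9 knockdown summit lay at 37.5 bp. Counting the nearest coding gene only, or peaks nearest to the gene's own start, put the other TAF genes at 0% in the U2AF1 knockdown list, since TAF5L dropped out, and the latter put partner genes there at 0%. Read depth, unknown here, limits how many weak promoters any list can show.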

Other observations

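Peaks inside member genes but away from their starts are given as a description only, since no share over all coding genes was computed for comparison. The control list had one in an intron of GTF2A1 (chr14:81219279-81219676), with a fold enrichment of 4.15, a −log10 q of 6.89 and rank 1367, and no other annotated start within 1000 bp of its summit. The DHX9 knockdown list had one over the 3′ UTR of TAF6L (chr11:62787216-62787472), with a fold enrichment of 4.28 and rank 3469, whose summit lay 97 bp upstream of a start of TMEM179B, a neighbouring coding gene. That summit was 5579 bp from the nearest TAF6L start. The control list also had a peak, of rank 1482, with its summit 5712 bp from the nearest TAF6L start, which was not counted as inside the gene. The U2AF1 knockdown list had none in any of the 85 genes.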
